A study of Mus musculus with 6 samples.

Results

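The lymphatic vessel genes of the mouse aorta were followed on 6 whole-transcript Affymetrix arrays. They are 10 genes of lymphatic endothelium and of lymphatic growth and valves (Lyve1, Mmrn1, Flt4, Reln, Prox1, Pdpn, Vegfc, Nrp2, Foxc2 and Itga9), chosen by name. A gene counted where a probe set named it and no other gene, and all 10 of 10 listed genes had exactly 1 such probe set, among 25254 probe sets that represent 19752 genes. The arrays hold aortic RNA of 3 mice without Adora1, the adenosine A1 receptor gene, and without Apoe (DKO, genotype apoe-/- adora1-/-) and of 3 mice lacking Apoe alone (ApoE-KO, genotype apoe-/-), an atherosclerosis-prone model. All were 20 weeks old, untreated and on the C57BL/6 background, so both groups share the Apoe deletion, and neither wild-type mice nor mice without Adora1 alone were compared. The series text calls the comparison group Adora1 knockouts while each of its sample labels names Apoe, and the sample labels were followed. The sources used here do not say whether fat and loose tissue around the aorta were dissected away. The series text counts 3 mice in each group.

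Lymphatic capillaries and collecting vessels drain fluid, cells and lipoproteins from tissue, and in large arteries they run in the adventitia and the surrounding fat. The transcription factor PROX1 sets lymphatic endothelial fate, and the growth factor VEGF-C, acting on its receptor VEGFR-3 with the coreceptor neuropilin-2, drives lymphatic growth. Capillary cells carry LYVE1 and podoplanin, while FOXC2 and integrin alpha 9 serve the valves of collecting vessels. Several of these genes are also used elsewhere: LYVE1 by resident macrophages, podoplanin by mesothelium and fibroblasts, multimerin-1 by platelets and blood endothelium, and integrin alpha 9 by smooth muscle.

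Lyve1, Mmrn1, Reln, Flt4, Pdpn and Prox1 were lower in DKO than in ApoE-KO aortas in each of the 3 replicate numbers. The group means of Vegfc, Nrp2, Foxc2 and Itga9 differed by no more than 0.11 on the log2 scale. Within single replicate numbers these 4 genes differed by up to 0.28 (Nrp2, replicate 2). Of the 10 genes, 1 passed the test across all probe sets: Lyve1 fell by 0.61 (log2) with arrays paired by replicate number (limma with the replicate number as a block, adjusted p = 0.0309). The other 9 did not pass with that block, and 0 of 10 passed without it. Over all 25254 probe sets 0.174% passed with the block (0.0792% passed and were lower in DKO), and 0% passed without it. Without the block 3 of the 10 genes, Lyve1, Mmrn1 and Reln, had an unadjusted p under 0.05, each lower in DKO, as did 2.68% of all probe sets in that direction. Same-numbered arrays of the 2 groups deviated together over all probe sets (r = 0.60, 0.50 and 0.64 across genes), which is the ground for the pairing, because the labels do not explain the numbers. In bulk RNA fewer cells of a type and less RNA per cell cannot be told apart.

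The median difference of the 10 genes was -0.24 (log2), beside -0.0024 over all probe sets. By replicate number the median over the 10 genes was -0.18, -0.31 and -0.12. In all, 7 of 10 were lower in DKO by their group means, where 50.7% of probe sets were, and 6 of 10 were lower in all 3 pairs, where 19.1% were. The DKO arrays lay entirely below the ApoE-KO arrays for 5 of 10 genes, against 6.47% of all probe sets. Because the genes were listed with earlier results of these arrays known, these shares describe the list and are not independent support for it.

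**Figure D1:**
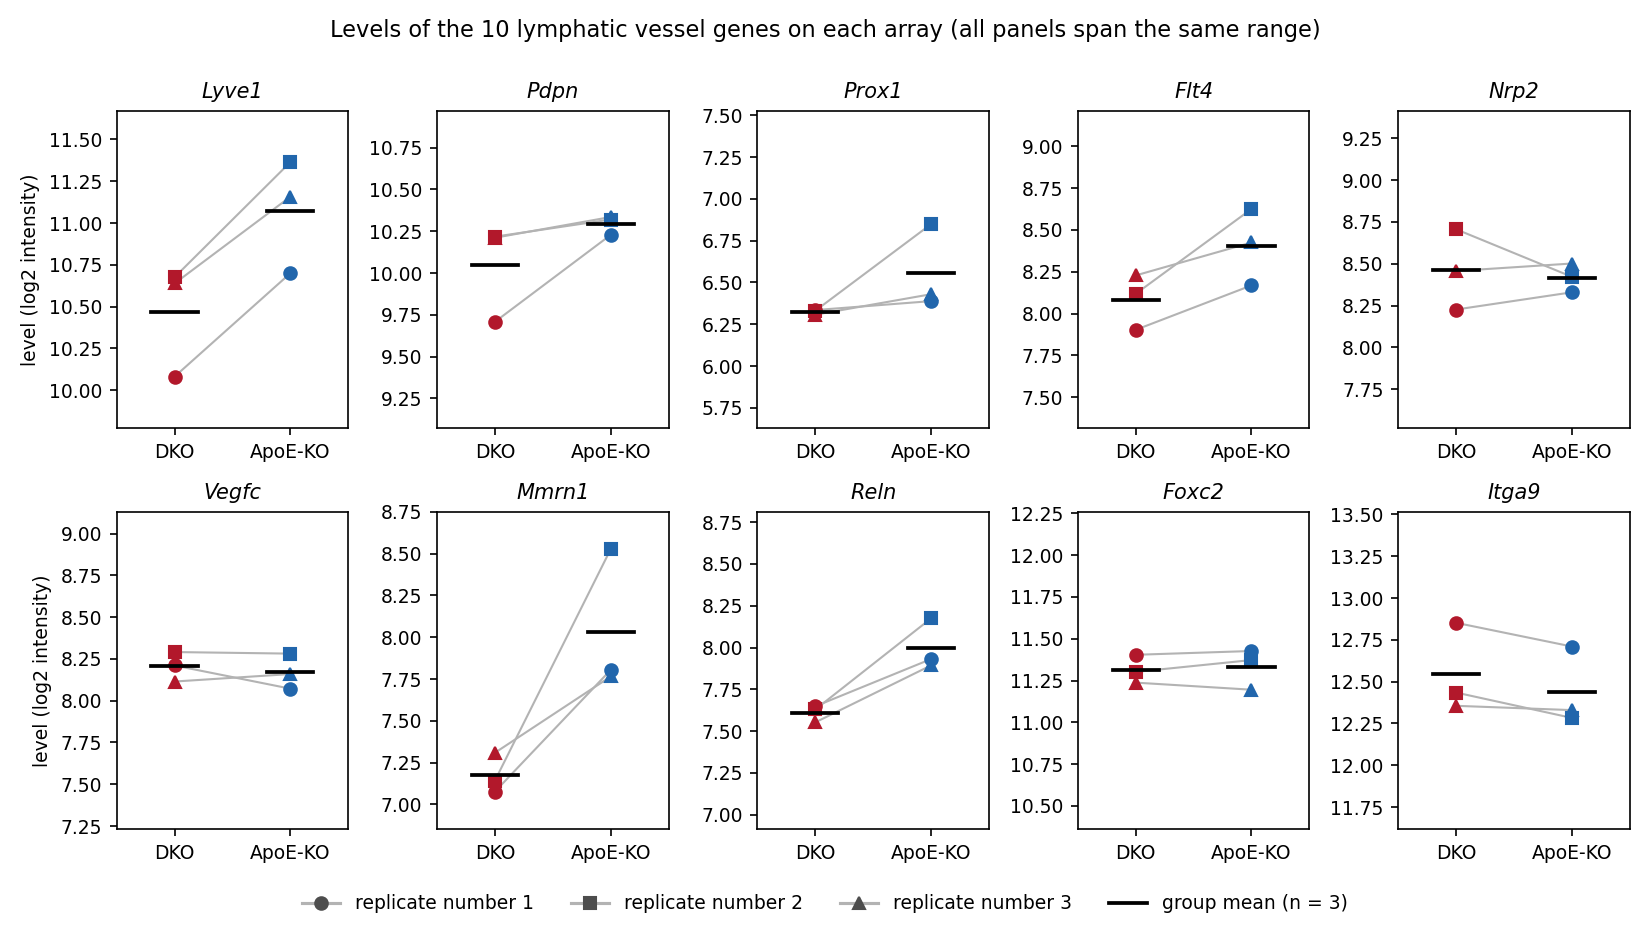
Levels of the 10 genes on each array (y axis, log2 intensity, every panel spanning the same range), DKO left and ApoE-KO right, with grey lines joining arrays of the same replicate number and black bars for group means (n = 3 each). Lyve1, Mmrn1, Reln, Prox1 and Pdpn show all 3 DKO arrays below all 3 ApoE-KO arrays, and the lines of Vegfc, Nrp2 and Foxc2 run in both directions.

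Among the surface proteins, Lyve1, which encodes a hyaluronan receptor of lymphatic capillaries, read 10.08, 10.68 and 10.64 (log2 intensity, replicates 1 to 3) in DKO aortas, against 10.70, 11.36 and 11.16 in ApoE-KO aortas. Replicate 1 was the lowest array of both groups, and the groups were separated by a margin of 0.024 between the highest DKO and the lowest ApoE-KO array. The means were 10.47 ± 0.33 in DKO and 11.07 ± 0.34 in ApoE-KO (SD, n = 3 each), so the DKO level was 65.6% of the ApoE-KO level in geometric means. Within replicate numbers the differences were -0.62, -0.69 and -0.52, a spread of 0.09 (SD over 3 pairs) that is smaller than the spread within either group. With the block the 95% interval of the difference was -0.75 to -0.47, and without it -1.12 to -0.10 (limma, adjusted p = 0.861). The paired call was kept without replicate 1 of both groups and without replicate 3 of both groups (limma with the block, adjusted p = 0.0116 and 0.0343), but not without replicate 2 of both groups, where the difference was -0.57 (adjusted p = 0.265) and 0 of all probe sets passed.

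Pdpn, encoding the mucin-like podoplanin that binds the platelet receptor CLEC-2, read 9.71, 10.22 and 10.21 in DKO, against 10.23, 10.32 and 10.34 in ApoE-KO. The groups did not overlap, but DKO replicate 1 stood apart from the other arrays. Its differences by replicate number were -0.52, -0.10 and -0.12, with a mean of -0.25 (limma with the block, 95% interval -0.47 to -0.03, adjusted p = 0.259). Without DKO replicate 1 the unpaired difference was -0.08.

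Prox1, the homeobox factor of lymphatic fate, read 6.33, 6.33 and 6.31 in DKO, against 6.39, 6.85 and 6.43 in ApoE-KO. The 3 DKO arrays were almost level (SD 0.015), and most of the difference came from ApoE-KO replicate 2. The differences by replicate number were -0.05, -0.52 and -0.12, and the mean of -0.23 did not pass (limma with the block, 95% interval -0.49 to 0.02, adjusted p = 0.344). Without ApoE-KO replicate 2 the unpaired difference was -0.08. Prox1 is the 1 gene of the 10 whose mean over the arrays lay below the 40th percentile of all probe sets. The deposited table holds no detection calls, so whether its values, or those of other genes named here, stand above background was not tested.

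Flt4, which encodes VEGFR-3, the receptor for VEGF-C, read 7.90, 8.12 and 8.23 in DKO, against 8.17, 8.63 and 8.43 in ApoE-KO. The groups overlapped, because DKO replicate 3 lay above ApoE-KO replicate 1. Within each replicate number Flt4 was lower in DKO, with differences of -0.27, -0.51 and -0.20, and the mean of -0.32 did not pass (limma with the block, 95% interval -0.52 to -0.13, adjusted p = 0.148). The unpaired difference was -0.21 without ApoE-KO replicate 2.

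Nrp2, encoding the coreceptor neuropilin-2 that also binds semaphorins, read 8.23, 8.71 and 8.46 in DKO, against 8.33, 8.42 and 8.50 in ApoE-KO. The groups overlapped fully and the differences by replicate number were -0.10, 0.28 and -0.04. The mean difference of 0.05 (limma with the block, 95% interval -0.17 to 0.26, adjusted p = 0.843) was smaller than the spread between replicates. The ligand gene Vegfc read 8.21, 8.29 and 8.11 in DKO, against 8.07, 8.28 and 8.16 in ApoE-KO. Its difference of 0.03 had a 95% interval of -0.13 to 0.20 (limma with the block, adjusted p = 0.845), so the ligand and its coreceptor showed no difference beyond their replicate spread.

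Of the secreted matrix proteins, Mmrn1, which encodes multimerin-1, had the lowest difference of the 10 genes. It read 7.08, 7.14 and 7.31 in DKO, against 7.80, 8.53 and 7.77 in ApoE-KO. All DKO arrays lay below all ApoE-KO arrays, and ApoE-KO replicate 2 stood above the others. The means were 7.18 ± 0.12 in DKO and 8.03 ± 0.43 in ApoE-KO (SD, n = 3 each), which puts DKO at 55.2% of the ApoE-KO level in geometric means. The differences by replicate number were -0.73, -1.38 and -0.46, and their spread (SD 0.48 over 3 pairs) is wider than that of Lyve1. The mean of -0.86 did not pass (limma with the block, 95% interval -1.25 to -0.47, adjusted p = 0.0912). A difference at or below -0.6 was seen in 0.265% of all probe sets.

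Reln, encoding reelin, a secreted glycoprotein of lymphatic endothelium that takes part in the coating of collecting vessels with smooth muscle, read 7.65, 7.63 and 7.55 in DKO, against 7.93, 8.17 and 7.89 in ApoE-KO. The DKO arrays lay close together and below every ApoE-KO array. The differences by replicate number were -0.28, -0.55 and -0.34. Their mean of -0.39 did not pass (limma with the block, 95% interval -0.57 to -0.20, adjusted p = 0.0995), and it ran from -0.44 to -0.30 when single arrays were left out of the unpaired fit.

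The valve genes differed little. Foxc2, a forkhead factor needed for valve formation, read 11.40, 11.30 and 11.24 in DKO, against 11.43, 11.37 and 11.20 in ApoE-KO. Both groups showed the same order of replicates, and the difference of -0.02 had a 95% interval of -0.14 to 0.11 (limma with the block, adjusted p = 0.904). Itga9, the integrin subunit that binds fibronectin in valve leaflets, read 12.85, 12.43 and 12.36 in DKO, against 12.71, 12.28 and 12.33 in ApoE-KO. It was the 1 gene of the 10 higher in DKO in all 3 pairs (0.14, 0.15 and 0.03), where 21.2% of all probe sets were, and it did not pass (mean 0.11, limma with the block, 95% interval -0.01 to 0.23, adjusted p = 0.351). Without DKO replicate 1 the unpaired difference of Itga9 was -0.05.

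**Figure D2:**
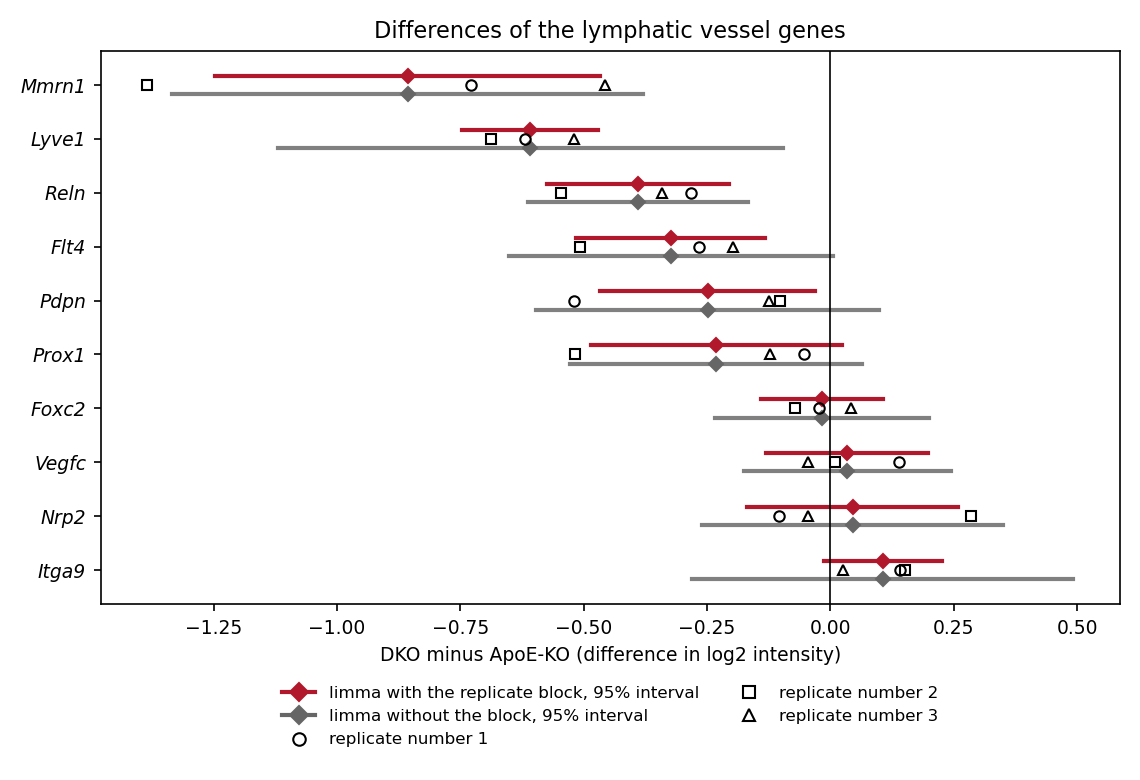
DKO minus ApoE-KO differences (x axis, log2) of the 10 genes, with diamonds and 95% intervals from limma with the replicate block (red) and without it (grey) and open symbols for the 3 replicate numbers. The Lyve1 interval narrows to -0.75 to -0.47 with the block, and the open symbols of Mmrn1 spread from -1.38 to -0.46.

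Promoters are shown for the 4 genes with an unadjusted p under 0.05 in the paired fit and an entry in the RefSeq promoter table. That table (build GRCm38.p6) matched 8 of the 10 genes by symbol. Lyve1 and Foxc2 had no entry, so the promoter of Lyve1 is not shown. With the block, 5 of 10 genes had an unadjusted p under 0.05, all lower in DKO, where 6.1% of all probe sets were. Each sequence runs 5′ to 3′ on the gene's strand, from 250 bases before the transcription start to 50 bases after it. Capitals mark GGAA on either strand (TTCC on the printed one), the core of sites for ETS factors, a family that acts in blood and lymphatic endothelium. The windows lie at chr6:60944067-60944366 (plus strand) for Mmrn1, chr5:22344656-22344955 (minus strand) for Reln, chr11:49609429-49609728 (plus strand) for Flt4 and chr4:143299515-143299814 (minus strand) for Pdpn.
Mmrn1: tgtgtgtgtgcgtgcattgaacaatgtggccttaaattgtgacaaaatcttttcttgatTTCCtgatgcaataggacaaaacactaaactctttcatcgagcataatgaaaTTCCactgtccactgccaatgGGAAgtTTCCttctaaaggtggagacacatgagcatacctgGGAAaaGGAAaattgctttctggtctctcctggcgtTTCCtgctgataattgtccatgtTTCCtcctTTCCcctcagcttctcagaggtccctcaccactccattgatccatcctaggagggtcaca
Reln: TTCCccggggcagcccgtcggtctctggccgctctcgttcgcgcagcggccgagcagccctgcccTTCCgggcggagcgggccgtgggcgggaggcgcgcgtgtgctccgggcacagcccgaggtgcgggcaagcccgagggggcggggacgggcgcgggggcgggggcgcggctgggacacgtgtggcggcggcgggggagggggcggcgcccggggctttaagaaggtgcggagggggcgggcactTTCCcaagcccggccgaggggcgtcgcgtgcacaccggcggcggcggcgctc
Flt4: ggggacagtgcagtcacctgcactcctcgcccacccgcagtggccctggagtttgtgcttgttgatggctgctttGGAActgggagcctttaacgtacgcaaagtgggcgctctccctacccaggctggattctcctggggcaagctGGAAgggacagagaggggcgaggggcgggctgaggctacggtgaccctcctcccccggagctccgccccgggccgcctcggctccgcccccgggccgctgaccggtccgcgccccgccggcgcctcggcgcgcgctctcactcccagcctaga
Pdpn: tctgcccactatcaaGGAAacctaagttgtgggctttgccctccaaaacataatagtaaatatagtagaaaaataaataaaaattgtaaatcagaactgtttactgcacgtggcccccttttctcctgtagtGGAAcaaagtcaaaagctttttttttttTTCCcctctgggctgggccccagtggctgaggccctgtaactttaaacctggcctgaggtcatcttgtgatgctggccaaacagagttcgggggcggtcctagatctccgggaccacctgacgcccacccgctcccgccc

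The Mmrn1 window held 9 GGAA matches, Reln and Pdpn 3 each and Flt4 2. Over 32851 promoters of the same length 96.0% held at least 1 match, the median was 3, and 1.59% held at least 9. The share of G and C was 44.3% in the Mmrn1 window and 48.7% in that of Pdpn, against 80.7% for Reln and 70.3% for Flt4. Of the other motifs searched on both strands, ACAAT (SOX factors) stood 3 times in the Mmrn1 window and once in that of Pdpn, and 31.0% of promoters held it. AGGTCA (nuclear receptors) and TAAACA (forkhead factors) each stood once in the Pdpn window and in 16.3% and 13.4% of promoters, and the GATA factor motif AGATAA, found in 11.2%, stood in none of the 4. These matches describe the letters of the windows and were not set against the arrays.

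Genes around the VEGF-C axis showed no common direction. Of 13 measured genes of other VEGF ligands, receptors and VEGF-C processing, 0 passed with the block (limma), 3 had an unadjusted p under 0.05 (16.2% of all probe sets did), 8 were lower and 5 higher in DKO, and the median was -0.03. The members with the smallest p were Vegfa, the principal blood vessel growth factor (-0.38, adjusted p = 0.0790), and Pcsk5, a proprotein convertase (0.30, adjusted p = 0.104). Next came Pgf, placental growth factor (0.22, adjusted p = 0.254), and Kdr, which encodes VEGFR-2 (-0.29, adjusted p = 0.381). Kdr differed by -0.02, -0.08 and -0.76 in replicates 1 to 3, so most of its mean came from replicate 3. Replicate 3 of both groups also carried lung transcripts, and their part in the Kdr difference was not tested. Of 22 regulators of lymphatic fate and vessel growth 0 passed and 6 had an unadjusted p under 0.05, with 11 lower, 11 higher and a median of 0.02. The angiopoietin genes Angpt2 (0.37) and Angpt1 (0.31) and the ephrin gene Efnb2 (0.26) were higher, and Nr2f2, which encodes the PROX1 partner COUP-TFII, was lower (-0.27), with adjusted p from 0.0752 to 0.182. Valve and collecting vessel genes stood at a median of 0.02 over 17, with 0 passing and 4 at an unadjusted p under 0.05, and included the cadherin Fat4 (0.25), the Ras regulator Rasa1 (0.23), the phosphatase Ptpn14 (0.15) and the gap junction gene Gja4 (-0.18).

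A further 20 genes expressed in lymphatic endothelium ran in both directions. Of these 9 were lower and 11 higher, with a median of 0.01, where 50.7% of all probe sets were lower. With the block (limma) 0 passed and 6 had an unadjusted p under 0.05, where 16.2% of all probe sets did. Ackr2, the chemokine scavenging receptor of lymphatic endothelium, was lower in all 3 pairs (-0.23, -0.72 and -0.37, adjusted p = 0.127). The secreted fibrinogen-like gene Fgl2 (0.40), the semaphorin gene Sema3d (0.32) and the coagulation inhibitor gene Tfpi (0.22) were higher, with adjusted p of 0.0517, 0.0789 and 0.226. Many of these genes are also expressed by other cells of the artery wall.

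Partners of the individual members were also read. Over all probe sets, 50.7% were lower in DKO by group means and 16.2% had an unadjusted p under 0.05 with the block (limma). In the reelin pathway 0 of 8 genes passed with the block (limma; 1 at an unadjusted p under 0.05), and Vldlr, a lipoprotein and reelin receptor, stood higher in all 3 pairs (0.51, 0.45 and 0.32, adjusted p = 0.0545) while Reln stood lower. Of the podoplanin and CLEC-2 genes 8 of 10 were higher in DKO, 0 passed (3 at an unadjusted p under 0.05) and the median was 0.13, with Clec1b, the CLEC-2 gene, at 0.49 (adjusted p = 0.124). Among hyaluronan genes, the ligand side of LYVE1, 6 of 8 were lower with a median of -0.14 and 0 passing (4 at an unadjusted p under 0.05). Of these 4, the synthases Has1 (-0.40, adjusted p = 0.0995), Has2 (-0.33, adjusted p = 0.180) and Has3 (-0.20, adjusted p = 0.302) were lower. The other, Cemip2, was higher in all 3 pairs (mean 0.19, limma with the block, adjusted p = 0.229). Mean levels of the synthases in DKO and ApoE-KO were 7.37 and 7.77, 6.97 and 7.30, and 6.86 and 7.06, under the lowest array median of 8.01. Trafficking signals were lower in 6 of 9 genes with a median of -0.18 and 0 passing (4 at an unadjusted p under 0.05), among them Spns2 (-0.24), which exports sphingosine 1-phosphate, its receptor gene S1pr1 (-0.19), the kinase gene Sphk1 (-0.20) and the chemokine gene Cxcl12 (-0.22), with adjusted p from 0.185 to 0.251.

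**Figure D3:**
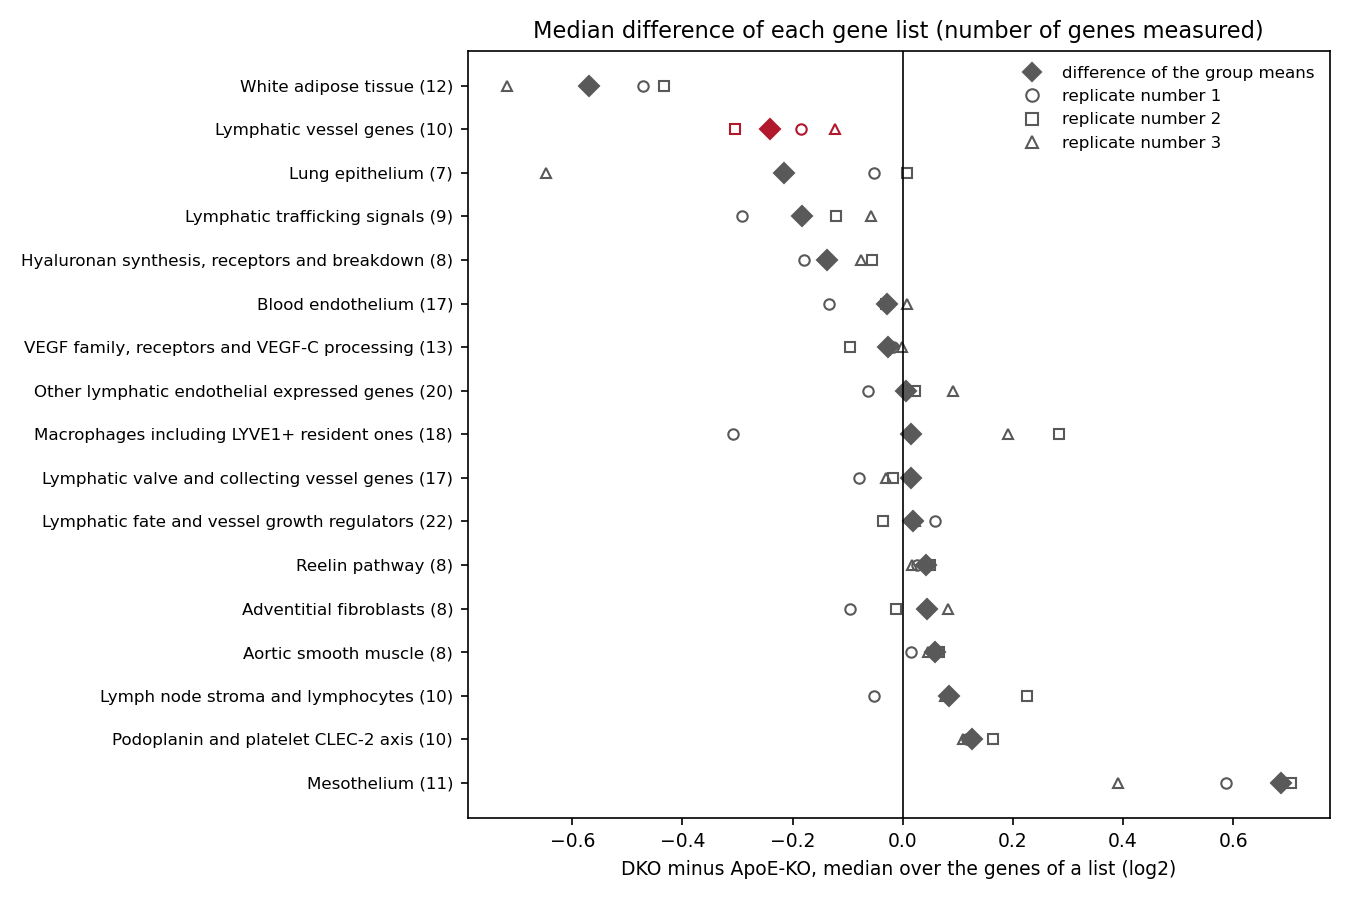
Median DKO minus ApoE-KO difference (x axis, log2) over the genes of each list, filled diamonds for group means and open symbols for the 3 replicate numbers, with the number of genes measured in brackets. The lymphatic vessel genes (red, -0.24) lie to the left of 0 in every replicate number, white adipose genes lie farther left (-0.57) and mesothelial genes to the right (0.69).

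Blood endothelium genes ran in both directions: 9 of 17 genes were lower, 8 higher, 0 passed with the block (limma; 9 at an unadjusted p under 0.05, where 16.2% of all probe sets were), and the median was -0.03. The members with the smallest p included both, with the endothelial transcription factor gene Erg at 0.40, the sialomucin gene Emcn at -0.45, the guidance receptor gene Robo4 at -0.37 and the secreted factor gene Egfl7 at -0.31 (adjusted p from 0.0827 to 0.130). The mean level of the list ran from 9.84 to 10.17 in DKO and from 9.95 to 10.17 in ApoE-KO. Relative to that mean on the same array, the Lyve1 difference was -0.57 ± 0.10, that of Reln -0.36 ± 0.19 and that of Mmrn1 -0.82 ± 0.49 (SD over 3 pairs), each negative in all 3 pairs, as were those of Flt4 (-0.29 ± 0.19) and Pdpn (-0.21 ± 0.17). The Prox1 difference relative to it was -0.20 ± 0.29 and changed sign between pairs.

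Genes of macrophages, including markers of LYVE1-bearing resident ones, had a median of 0.02 over 18, with 9 lower and 9 higher in DKO. With the block (limma) 0 passed and 1 had an unadjusted p under 0.05. Over all probe sets 50.7% were lower in DKO and 16.2% had such a p. By replicate number the median of the macrophage genes was -0.31, 0.28 and 0.19. The part of LYVE1-bearing macrophages in the lower Lyve1 level was not tested. The list had a mean level of 9.44 to 10.32 in DKO and 9.78 to 10.04 in ApoE-KO. Mesothelium also expresses Pdpn, and its genes were higher in DKO in 11 of 11 genes with a median of 0.69 (mean level 7.86 to 8.23 in DKO, 7.31 to 7.73 in ApoE-KO). Of them 3 rose with the block, Upk1b (1.19), Lrrn4 (0.80) and Gpm6a (0.69), where 0.095% of all probe sets passed and were higher in DKO, and Pdpn stood at -0.25. Lymph node and lymphocyte genes (median 0.08 over 10), adventitial fibroblast genes (0.04 over 8) and aortic smooth muscle genes (0.06 over 8, mean level 12.41 to 12.58 in DKO and 12.33 to 12.56 in ApoE-KO) had 0 passing each, with 1, 1 and 3 genes at an unadjusted p under 0.05.

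White adipose genes, as a list mean, were lowest and highest on the same arrays as Lyve1. Of 12 measured adipose genes 11 were lower in DKO in all 3 pairs, where 19.1% of all probe sets were, and 5 fell with the block, where 0.0792% passed and were lower. Among those 5 were the hormone gene Retn (-1.53), the carbonic anhydrase gene Car3 (-0.90), the lipogenic regulator gene Thrsp (-1.32) and the galectin gene Lgals12 (-0.68). The remaining gene of the 12 measured, the hormone gene Lep, was higher in all 3 pairs (0.18, 0.56 and 0.33, mean 0.36, limma with the block, adjusted p = 0.154). The mean level of the list ran from 9.18 to 9.99 in DKO and from 9.85 to 10.48 in ApoE-KO, lowest in DKO replicate 1 and highest in ApoE-KO replicate 2, the same extremes as Lyve1, Flt4 and Mmrn1. Relative to the adipose mean on the same array, Lyve1 differed by 0.05, -0.19 and 0.11 in the 3 pairs (mean -0.01 ± 0.16, SD) and Mmrn1 by -0.06, -0.89 and 0.17. On that scale Flt4 stood at 0.40, -0.01 and 0.43, Reln at 0.38, -0.05 and 0.29, and Prox1 at 0.61, -0.02 and 0.51. Pdpn stood higher in each pair (0.15, 0.39 and 0.51), and the mean over all 10 genes differed by 0.35 ± 0.17 (SD over 3 pairs). The part of adipose tissue in the lower levels of these genes was not tested.

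Replicate 3 of both groups carried lung transcripts, with Sftpc, a surfactant protein gene, at 11.92 in DKO replicate 3 and 12.32 in ApoE-KO replicate 3 against 6.21 to 6.45 on the other 4 arrays. Without replicate 3 of both groups Lyve1 stood at -0.65 and the median of the 10 genes at -0.30. Apoe, which both groups lack by their labels, read 9.58 ± 0.17 in DKO and 9.72 ± 0.29 in ApoE-KO (SD, n = 3 each), and with no wild-type array this does not check the deletion. Adora1 is not analysed here.

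To find which genes share the course of Lyve1 over the 6 arrays, each gene's values were centred on their own mean and compared with those of Lyve1 by the root-mean-square difference, in log2 units. Of 17620 other genes the nearest were Slco2b1, an organic anion transporter (0.038), Sned1, an extracellular matrix protein (0.052), Gpx3, the secreted glutathione peroxidase (0.078), the binding proteins for insulin-like growth factors Igfbp3 (0.084) and Igfbp6 (0.096), and the alarmin Il33 (0.10). None is a member of the lymphatic list. Slco2b1 read 8.82, 9.36 and 9.30 in DKO, against 9.37, 10.13 and 9.89 in ApoE-KO. Among the 10 genes Flt4 came nearest, at rank 86 (0.19), then Pdpn at rank 262, Mmrn1 at 382, Reln at 549 and Prox1 at 745. Nrp2, Vegfc, Foxc2 and Itga9 followed at ranks 4105 to 16615. A gene with no variation would stand at 0.41, a distance within which 6979 genes lie, so Foxc2 and Itga9 were farther from Lyve1 than a flat line. The ranks describe these 6 arrays only.

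Among list means, white adipose genes lay nearest to Lyve1 (0.14), ahead of the mean of the lymphatic vessel genes, Lyve1 included (0.27). Blood endothelium stood at 0.33, macrophages at 0.37 and mesothelium at 0.64, with other lists lying between them. A gene with no variation would stand at 0.41.

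**Figure D4:**
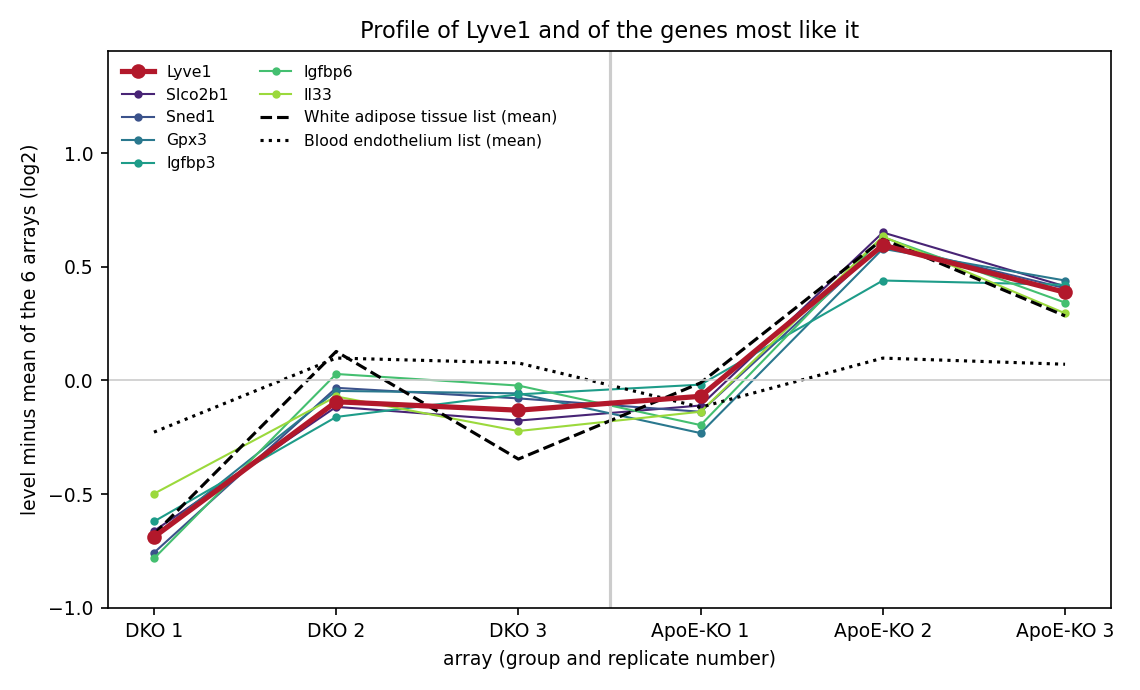
Levels of Lyve1 (thick red line), of the 6 genes nearest to it and of 2 list means on each array (x axis, DKO then ApoE-KO, replicates 1 to 3), each minus its mean over the 6 arrays (y axis, log2). All lines but that of blood endothelium are lowest in DKO replicate 1 and highest in ApoE-KO replicate 2, and the adipose line departs from Lyve1 most in DKO replicates 2 and 3.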

How the data were processed

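RNA from 6 aortas was measured, 1 array each. The authors deposited log2 intensities as 1 table, and the submitters' processing notes name RMA, Partek (no version of either) and mouse build mm9. Removal of a batch effect is neither stated nor denied in the sources used here. The median of each array lay between 8.01 and 8.02, correlations between arrays ran from 0.983 to 0.995, no array was left out, and the number of arrays limits the precision. The platform annotation names 1 gene for 21496 probe sets, several for 1565 and none for 2193. All 10 members matched the RefSeq table by Entrez identifier, with 0 symbols changed.

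All 25254 probe sets were fitted with limma 3.58.1 in R 4.3.3 (lmFit, eBayes with an intensity trend, no filter on low values), DKO minus ApoE-KO, two-sided, with Benjamini-Hochberg adjustment over all of them at a threshold of 0.05. The fit without a block was the first one, because the study's ANOVA used an array batch that no label names, and nothing ties the replicate numbers to that batch. The numbers were taken as pairs from the data: same-numbered arrays correlated at 0.60, 0.50 and 0.64 in their deviations from group means (different numbers, -0.53 to -0.10). Centring each group on its own mean pushes the different-number values below 0 once the same-number values are positive. The different-number values therefore add no separate support. Adjusted p-values in the text are of the fit with the block unless another is named. The fits were tested on simulated data. Per list, up to 4 genes with the smallest p in the paired fit are named, and the 6 genes nearest to Lyve1 (predicted and olfactory receptor genes left out). The 10 members and the 16 other lists (198 of 210 entries measured) were chosen with earlier results of these data known. Each further list was compared with the background over all probe sets and given no set test. Promoters come from RefSeq (GRCm38.p6).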

Additional observations from a re-analysis of the deposited data

How the results depend on the processing

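Of the 20 other settings tried on all members, none turned the direction of Lyve1, Mmrn1, Reln, Flt4, Pdpn or Prox1 (Prox1 was not in the filter at the 40th percentile), and the number of members lower in DKO stayed between 6 and 9. Averaging all probe sets of a gene changed nothing, since each member has 1. The count of members past the threshold was 0 without a block, 1 with the replicate block, 1 with the block and without replicate 1 or without replicate 3 of both groups, and 0 with the block and without replicate 2 of both groups. It was 0 in an unmoderated linear model with the block, in which 2669 probe sets had an unadjusted p under 0.05. Over all probe sets 0 passed without a block (1419 at an unadjusted p under 0.05) and 44 with the replicate block. The count was 1 in the unmoderated model without a block, between 0 and 8 when single arrays were left out, the 8 being without DKO replicate 3, and 415, 0 and 48 with the block and without replicate 1, 2 or 3 of both groups. The median of the members ran from -0.30 to -0.15 when single arrays were left out (-0.16 without DKO replicate 1, -0.15 without ApoE-KO replicate 2).

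Genes near 0 changed sign. With single arrays left out, Foxc2 ran from -0.085 to 0.031, Nrp2 from -0.076 to 0.164, Vegfc from -0.015 to 0.090 and Itga9 from -0.046 to 0.241. The turned values came without DKO replicate 3 or ApoE-KO replicate 1 or 2 for Foxc2, without DKO replicate 2 for Nrp2, without DKO replicate 2 or ApoE-KO replicate 1 for Vegfc, and without DKO replicate 1 for Itga9. With the block, Foxc2 stood at 0.0098 and Nrp2 at -0.074 without replicate 2 of both groups, and Vegfc at -0.018 without replicate 1 of both groups. The cause was not tested. Lyve1 was the member that passed with the block, and the block changed no other member's call.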
